A study of Mus musculus with 6 samples.

Results

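Hormone-containing granules leave an islet cell by regulated exocytosis, and 36 mouse genes of that machinery were followed here. They were chosen by symbol for known roles, with earlier results of these data known but without a rule on measured values, from a table of 55401 gene identifiers, and all 36 were found. The group holds 7 core SNAREs (the fusion proteins), 5 synaptotagmins and synaptotagmin-like proteins, 4 Rab GTPases and Rab effectors, 11 priming and active-zone genes, 2 SNARE recycling genes, and 7 granins and granule membrane proteins. Transcripts were counted in islets of male C57BL/6 mice of about 20 weeks. The 3 control libraries came from Pdgfra fl/fl mice negative for Pdx1-Cre and the 3 KO libraries from Pdgfra fl/fl mice positive for Pdx1-Cre, so both groups carried the floxed receptor gene. Without a group that has Cre and intact Pdgfra, effects of the transgene and of the deletion cannot be told apart. Pdx1, whose promoter drives Cre, is expressed in the embryonic pancreas as well as in adult beta cells.

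Regulated secretion proceeds in steps. Granules are loaded with hormone and granins, carried to the plasma membrane by Rab27 and Rab3 with their effectors, primed by CAPS and Munc13 proteins at scaffolds such as RIM and piccolo, and fused when calcium binds synaptotagmins and a SNARE complex zips up. NSF and alpha-SNAP then take the spent SNARE complex apart. Acinar cells of the exocrine pancreas secrete zymogen granules with a partly different set, in which VAMP8 and Rab3D are prominent, so these genes can read from either cell type in whole islets.

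The libraries held 15026094 to 25299689 counts each. The labels name the cell type as beta cell, and all 10 beta markers examined were detected, but 31 acinar markers took between 20.1% (KO 3) and 47.0% (control 1) of counts. Fewer cells of a type and less RNA per cell cannot be told apart in such bulk samples. Levels are counts scaled to library size with TMM factors (CPM), and means carry the SD over the 3 libraries of a group. Nerve and Schwann cell markers, which share exocytosis genes with islet cells, were all detected but took at most 0.00535% of counts. A ribosomal RNA locus, CT010467.1, held 3.32% to 4.51% of counts in controls but 5.36%, 12.6% and 18.5% in KO 1, 2 and 3. Pdgfra itself averaged 4.11 ± 0.913 CPM in the control group and 3.35 ± 1.63 CPM in the KO group (adjusted p = 0.869 by edgeR, n = 3 per group), which leaves the labels unchecked, since reads of undeleted exons are counted too. Every KO column, and no control column, carries a suffix that the labels leave unexplained, so what it marks cannot be told apart from genotype. The labels number the mice but never say outright that every library is a different animal, and the p-values below speak only of spread among these samples, which may be technical.

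Per kilobase of exon, the 5 granins had the highest mean control levels of all members, though the control ranges of Scg5 and Syt13 overlapped. In CPM not divided by length, Scg5 averaged 335 in controls, below Syt13 at 642, Ptprn2 at 505 and Cplx2 at 374. The DNA just before the start sites of the granins and of Ptprn is shown. There, 6 of the 7 granin and granule membrane genes share the letters of a cyclic AMP response element, in full or in part. The full element is TGACGTCA and its half-site TGACG, which lies inside the full element on both strands. Each line gives 30 bases on the strand of the gene, in RefSeq on GRCm38.p6, with the match in capitals.
Chgb: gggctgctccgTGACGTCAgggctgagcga
Scg2: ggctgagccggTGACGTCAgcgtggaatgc
Chga: gggcggtcctaTGACGtaatttcctgggtg
Scg3: cgctgggtcgcTGACGccatcctcacgcct
Scg5: aaggaggtaaaTGACGttcataggggtcga
Ptprn: ttacgccagtaTGACGcaaataggcataag

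The Chgb stretch is chr2:132781559-132781588 (plus strand), with the match 72 to 65 bases before the RefSeq start. That of Scg2 is chr1:79440076-79440105 (minus strand), 68 to 61 bases before it. Both lie wholly within an exon of the gene in the deposited coordinates, which begin further upstream than RefSeq. The other 4 lie outside exons of their genes, with half-sites that begin 44 (Chga, chr12:102554886-102554915, plus strand), 30 (Scg3, chr9:75684068-75684097, minus strand), 175 (Scg5, chr2:113829248-113829277, minus strand) and 117 (Ptprn, chr1:75264307-75264336, minus strand) bases before the start. RefSeq start sites were matched for 27 of the 36 members, taking the first listed start and searching both strands of the 250 bases before it. The full element was found in 2 of these 27 and in 1.62% of 27025 such windows over all genes. The half-site was found in 14 of the 27 and in 17.9% of all windows. Ptprn2 held neither the full element nor the half-site. Of the other motifs searched, GGGCGG was in 18 of the 27 and in 32.9% of all windows, and TATAAA was in 0 of the 27 and in 13.0% of all windows. The windows over all genes were not matched to the members for gene type, level or base composition, so the shares are not compared like for like. A match is a description of the letters and shows no binding.

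Over the 35 members that passed the filter on low counts, 0 differed between KO and control by the edgeR quasi-likelihood test (Benjamini-Hochberg over 14212 genes, two-sided), where 0.0704% of all genes tested did. Their smallest adjusted p was 0.542. DESeq2 and limma-voom also called 0 members. At an unadjusted p under 0.05 there were 3 members, Pclo, Rims2 and Sytl4, or 8.57% of those tested beside 7.37% of all genes, and all 3 were higher in KO (background 4.83%). The groups did not overlap in 4 members, these 3 and Cadps, or 11.4% beside 13.9% of all genes, and all 4 were higher in KO, where 7.94% of all genes lay apart in that direction and 5.94% in the other. Differences were positive in 22 members and negative in 13, with a median log2 fold change of 0.05, beside -0.01 over all genes tested. Of all genes tested, 47.8% were positive. The 95% interval of the difference lay within 1 on the log2 scale, that is under a 2-fold change either way, for 32 of the 35 (background 85.3%). The exceptions were Pclo, Doc2b and Cplx1.

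**Figure D1:**
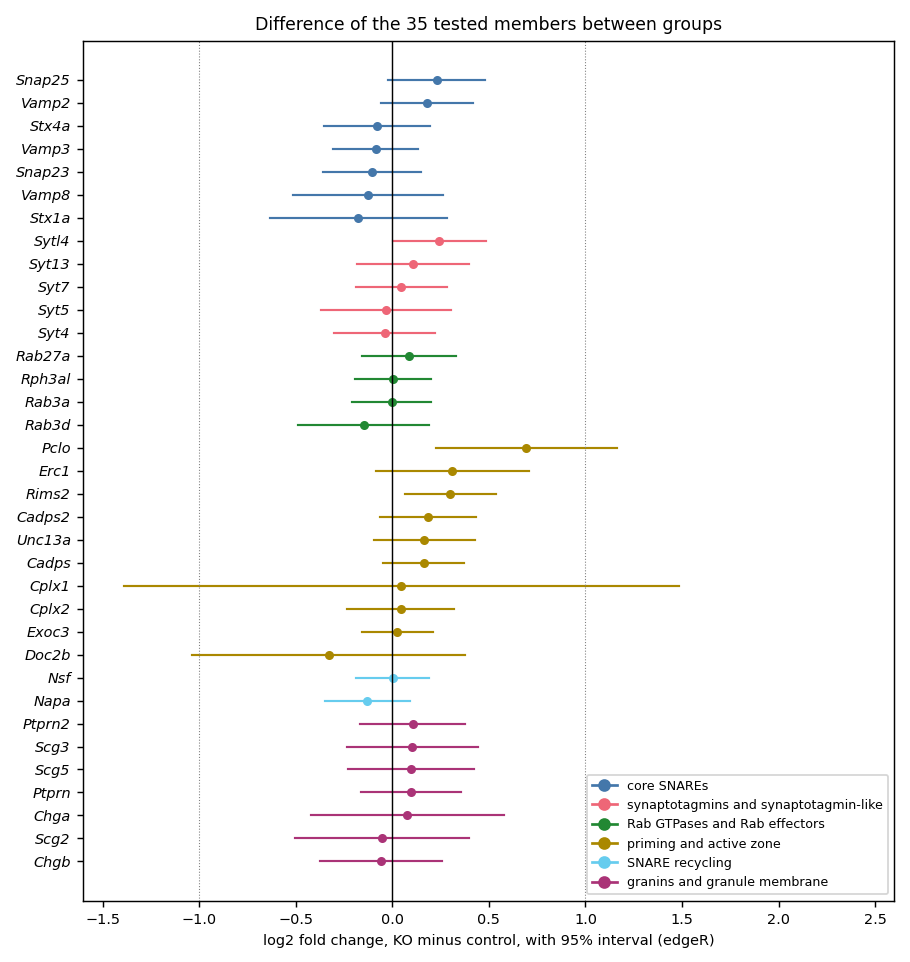
Log2 fold change (KO minus control, horizontal axis) of the 35 tested members with 95% intervals from edgeR, grouped by role, and dotted lines at -1 and 1. The interval of Pclo runs from 0.23 to 1.16 and that of Cplx1, the least abundant tested member, from -1.39 to 1.48.

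To compare genes with each other, levels were also divided by exonic length (CPM per kilobase of exon). Among the tested members the mean control level spanned 5859-fold, from Chga to Cplx1. In the order of control levels, 19 of the 35 pairs of neighbours had overlapping control ranges, so much of the middle order is not resolved by these libraries. The upper end was clear, with Chga above Scg2 and Scg2 above Chgb in every control, while Chgb and Scg3 overlapped.

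**Figure D2:**
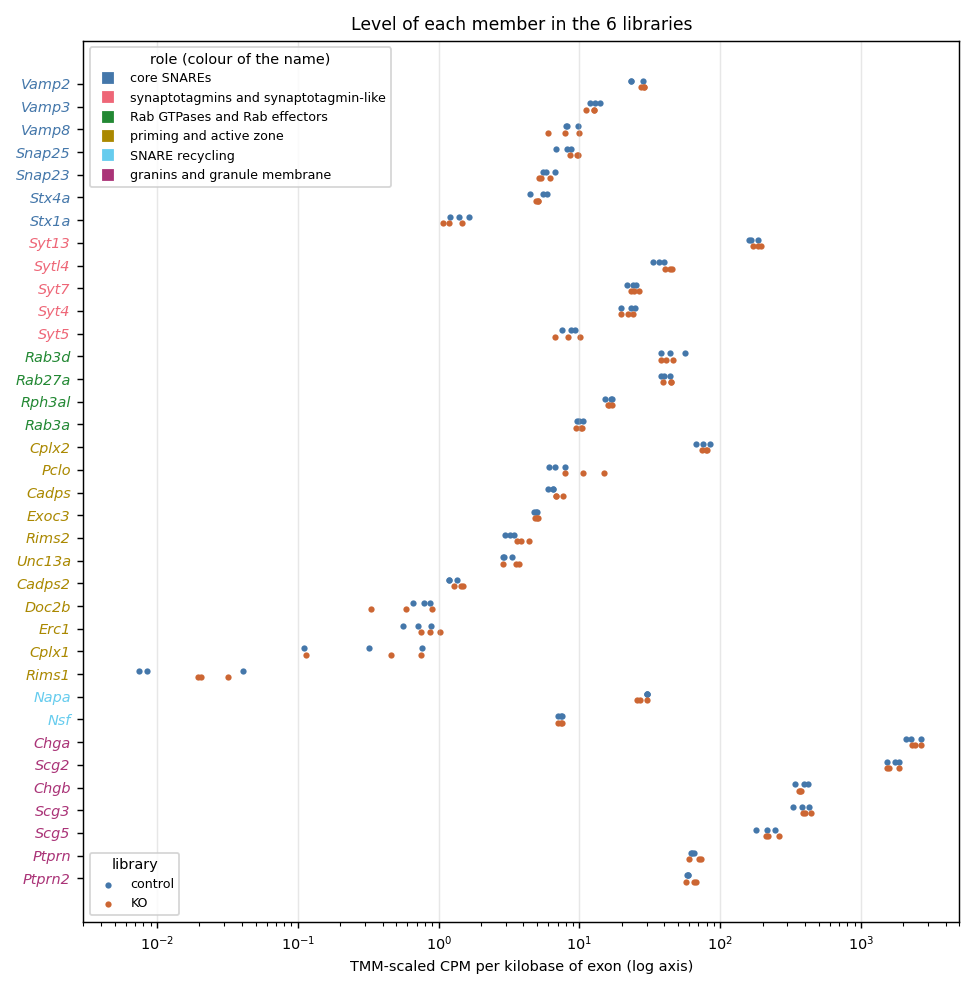
Level of the 36 members in CPM per kilobase of exon (log axis), with 1 point per library, controls above and KO below within each line. Granins lie at the upper end, with Chga at 2338 in controls, and Rims1, with 1 to 4 counts per library, at the lower end.

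Granins are acidic proteins that condense inside the granule, and their transcripts were abundant at like levels in both groups. Chga (chromosome 12, 102554969 to 102565028), which encodes chromogranin A, stood at 5753, 6197 and 7377 CPM in controls 1, 2 and 3 and at 6306, 7383 and 6703 in KO 1, 2 and 3. The groups overlapped, with control 1 lowest and KO 2 highest. By edgeR the difference was 0.08 on the log2 scale with a 95% interval of -0.42 to 0.58 (adjusted p = 0.947). Scg2, which encodes secretogranin II, averaged 4310.5 ± 422 CPM in the control group and 4149.8 ± 438 CPM in the KO group. Chgb, which encodes chromogranin B, had 1054 ± 112 and 1013 ± 14.7 CPM. Scg3, whose product binds chromogranin A and the granule membrane, had 1041 ± 130 and 1119 ± 72.0 CPM. Scg5 encodes 7B2, the chaperone of the prohormone convertase PC2, and had 335 ± 50.3 and 359 ± 42.6 CPM. Log2 fold changes of these 4 ran from -0.06 to 0.10, with edgeR adjusted p from 0.887 to 0.956.

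The 5 granins together took 0.973%, 1.38% and 1.77% of counts in controls 1, 2 and 3 and 1.29%, 1.29% and 1.38% in KO. Their share was thus lowest in control 1, where the acinar share was highest, and highest in control 3. The mean difference was smaller than the spread of the controls (exact two-sided permutation p = 0.7, with 0.1 the smallest possible for 3 against 3). Ins1 and Ins2 moved alike, from 7.04% in control 1 to 13.3% in control 3, with KO between 9.48% and 11.7% (exact two-sided permutation p = 0.9). Ptprn and Ptprn2 encode IA-2 and phogrin, receptor tyrosine phosphatase-like proteins of the granule membrane. Ptprn averaged 269 ± 7.89 CPM in the control group and 288 ± 31.1 CPM in the KO group, and Ptprn2 505 ± 7.94 and 543 ± 48.2 CPM (adjusted p = 0.860 and 0.854 by edgeR).

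Among the core SNAREs, 2 had positive and 5 negative differences, and the groups overlapped in all 7. Vamp2 encodes the main granule SNARE of beta cells and was the most abundant of the 7 per kilobase. It stood at 88.2, 89.0 and 108 CPM in controls and 103, 110 and 109 in KO. The KO values were close together at the level of control 3, and the log2 fold change was 0.18 (SE 0.11, adjusted p = 0.744 by edgeR). Snap25, its plasma membrane partner (chromosome 2, 136713453 to 136782428), stood at 46.2, 55.6 and 59.4 CPM in controls and 64.8, 58.2 and 66.4 in KO. Here KO 1 and KO 3 were above all controls and KO 2 was just below control 3 (log2 fold change 0.23, SE 0.11, adjusted p = 0.716 by edgeR). Its broadly expressed relative Snap23 had a value of -0.11, Vamp3 -0.09, and Stx4a, a plasma membrane syntaxin used in insulin secretion, -0.08. Stx1a, the neuronal-type syntaxin, was low, with 51 to 112 counts per library and a value of -0.18 (SE 0.20, adjusted p = 0.855 by edgeR). Vamp8 ranged from 13.9 CPM in KO 3 to 23.0 in KO 2, and its value of -0.13 turned positive (0.04) without KO 3.

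Neuroendocrine and other forms were also compared within each library, as log2 ratios that do not depend on library scaling. Snap25 to Snap23 was 0.90, 0.95 and 1.34 in controls and 1.51, 1.13 and 1.58 in KO. The mean was 0.34 higher in KO, but KO 2 lay below control 3 (exact two-sided permutation p = 0.2). Vamp2 to Vamp8 was 1.96, 2.25 and 2.54 in controls and 2.50, 2.26 and 2.98 in KO, a mean difference of 0.33 (exact two-sided permutation p = 0.4). Rab3a to Rab3d averaged -3.09 ± 0.36 in the control group and -2.96 ± 0.17 in the KO group (two-sided exact permutation, p = 0.7). In the controls these 3 ratios were lowest in control 1 and highest in control 3, while acinar shares were 47.0%, 36.1% and 26.3% in controls 1, 2 and 3. Cadps to Cadps2, at 2.815, 3.100 and 3.103 in controls 1, 2 and 3, followed that order too, with control 3 barely above control 2. The remaining pairs did not follow it. For example, Stx1a to Stx4a was -1.26, -2.11 and -1.81 in controls 1, 2 and 3. Cplx2 to Cplx1 was 10.4, 9.05 and 7.97, and both ratios were highest in control 1. In KO 1, 2 and 3 the acinar shares were 36.3%, 32.0% and 20.1%. The first 3 ratios and Cadps to Cadps2 did not follow these shares, since all were lowest in KO 2. Rab3a to Rab3d, for example, was -3.04, -3.08 and -2.76 in KO 1, 2 and 3. The part of acinar RNA in the ratios was not tested. Over the 8 pairs examined the groups overlapped in each, and every p adjusted over the 8 was 0.9.

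Synaptotagmins carry calcium-binding C2 domains, and Syt7 is a calcium sensor of insulin secretion. Syt7 averaged 178 ± 13.3 CPM in the control group and 184 ± 12.5 CPM in the KO group (log2 fold change 0.05, adjusted p = 0.933 by edgeR). Syt13 was the most abundant member of this role, at 599, 625 and 703 CPM in controls and 648, 728 and 701 in KO. The groups overlapped, with a log2 fold change of 0.11 (adjusted p = 0.859 by edgeR, SE 0.13). Syt4 and Syt5 had values of -0.04 and -0.03.

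Sytl4 encodes granuphilin, the Rab27a effector that docks insulin granules (chromosome X, 133936385 to 133981812). It stood at 172, 189 and 204 CPM in controls and 209, 233 and 226 in KO. All KO libraries lay above all controls, though KO 1 exceeded control 3 by a small margin. The log2 fold change was 0.24 with a 95% interval of 0.00 to 0.48 (SE 0.11), which missed the threshold over all genes (unadjusted p = 0.0493, adjusted p = 0.675 by edgeR). Its partner Rab27a had 147, 154 and 171 CPM in controls and 151, 175 and 175 in KO, a log2 fold change of 0.09 (adjusted p = 0.866 by edgeR, SE 0.11).

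Rab3d stood at 237, 185 and 160 CPM in controls and 173, 193 and 159 in KO. Its mean control level per kilobase was above that of Rab27a, but the control ranges overlapped and Rab27a was higher in control 3. Its highest value was in control 1, and its log2 fold change of -0.15 became 0.02 without that library. Rab3a, the neuronal form, averaged 22.4 ± 1.13 CPM in the control group and 22.4 ± 1.23 CPM in the KO group (95% interval of the log2 fold change -0.21 to 0.20). Rph3al encodes Noc2, an effector of Rab3 and Rab27, and had a log2 fold change of 0.00 (95% interval -0.19 to 0.20).

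The largest differences were among the priming and active-zone genes, where 9 of 10 tested members had positive values and the median log2 fold change was 0.16. Over all genes tested 47.8% were positive, but 69.8% of those with 8 to 16 kb of exon and 86.5% of those above 16 kb. Unc13a, Pclo, Rims2, Erc1, Cadps and Cadps2 fall in these 2 length classes. Pclo (chromosome 5, 14514918 to 14863459) encodes piccolo, a very large scaffold that binds RIM2 and calcium channels. It stood at 137, 151 and 177 CPM in controls 1, 2 and 3 and at 178, 238 and 335 in KO 1, 2 and 3. KO 1 was level with control 3, and KO 2 and KO 3 were well above every control. By edgeR the log2 fold change was 0.69 with an SE of 0.21 and a 95% interval of 0.23 to 1.16, and its p was 0.00832 before and 0.542 after adjustment. The value rested in part on KO 3, since it was 0.43 without that library. It was 0.12 (SE 0.28) with the ribosomal RNA locus as a covariate, and the KO values of Pclo followed the order of that locus's share. As log2 CPM this covariate was 15.69, 14.94 and 15.20 in controls and 15.67, 17.13 and 17.42 in KO, so it overlaps in part with genotype. With the acinar covariate the value was 0.53 (SE 0.14). Within each group Pclo rose from library 1 to 3 while the acinar share fell. The part of either share was not tested. Without the filter on low counts, Pclo passed the threshold (adjusted p = 7.77e-05 by edgeR). With 1706 to 8809 counts per library, Pclo itself is kept by the filter. Its value stayed at 0.69 in that setting, but the SE fell to 0.13. Calls over all genes rose from 10 to 300 there, so the pass is not particular to Pclo.

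Rims2 encodes RIM2, a Rab3 effector and the piccolo partner in beta cells (chromosome 15, 39198261 to 39684372). It stood at 30.9, 33.4 and 35.5 CPM in controls and 37.5, 39.9 and 45.8 in KO. The groups did not overlap, and KO 3 was again highest. The log2 fold change was 0.30 (SE 0.10, unadjusted p = 0.0171, adjusted p = 0.600 by edgeR), and 0.16 (SE 0.17) with the ribosomal RNA covariate. Cadps encodes CAPS1, a priming factor of dense-core granules (chromosome 14, 12372563 to 12823079), and stood at 90.3, 97.4 and 97.4 CPM in controls and 102, 102 and 114 in KO. All KO libraries were above all controls by a small step, with a log2 fold change of 0.16 (adjusted p = 0.744 by edgeR, SE 0.09) that was 0.11 without KO 3. Its paralogue Cadps2 had a value of 0.19, the scaffold gene Erc1 0.31 and Unc13a, which encodes Munc13-1, 0.17, all with overlapping groups and edgeR adjusted p from 0.744 to 0.777.

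The other members of this role differed less or had few counts. Cplx2 encodes complexin 2, a clamp and activator of SNARE complexes, and was the most abundant of them, at 330, 371 and 420 CPM in controls and 367, 392 and 396 in KO (log2 fold change 0.04, SE 0.12, adjusted p = 0.948 by edgeR). Exoc3, a subunit of the exocyst tether, averaged 29.3 ± 0.718 CPM in the control group and 29.8 ± 0.874 CPM in the KO group. Doc2b, a calcium sensor, had 23 to 115 counts per library and a value of -0.33 (SE 0.31), whose interval of -1.04 to 0.38 is too wide to place it. Cplx1 had 3, 12 and 51 counts in controls and 25, 4 and 43 in KO, so values within each group spread as widely as those of both together (log2 fold change 0.05, SE 0.64), and its direction is not resolved. Rims1 had 4, 1 and 2 counts in controls and 4 in each KO library, and was not tested.

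**Figure D3:**
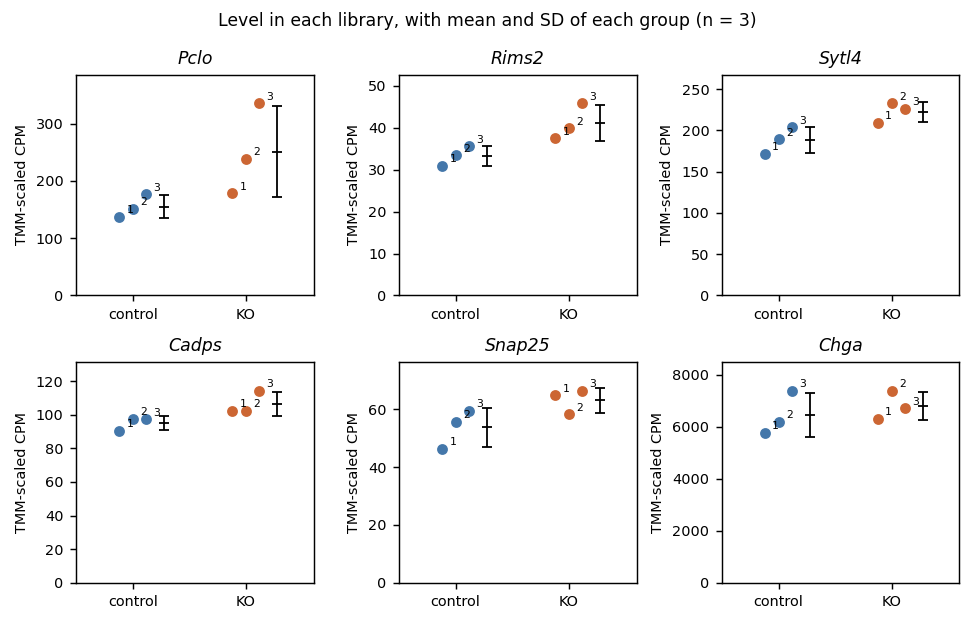
Level in TMM-scaled CPM (vertical axes from 0) of 6 members in each library, with the library number beside the point and the mean and SD of each group (n = 3) in black. Pclo ranges from 137 to 335 with KO 3 on top, Rims2, Sytl4 and Cadps do not overlap between groups, and Snap25 and Chga do.

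Neither recycling gene passed the test. Nsf, the ATPase that separates SNARE complexes, averaged 60.8 ± 2.16 CPM in the control group and 60.9 ± 2.24 CPM in the KO group (95% interval of the log2 fold change -0.19 to 0.19). Napa, which encodes alpha-SNAP, had 114, 114 and 115 CPM in controls and 101, 115 and 96.3 in KO. KO 1 and KO 3 lay below all 3 controls and KO 2 just above them (log2 fold change -0.13, SE 0.10, adjusted p = 0.788 by edgeR).

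The 3 largest positive values belonged to members with much exonic sequence, Pclo, Erc1 and Rims2. The next were those of Sytl4 (0.24) and Snap25 (0.23), with 5125 and 6791 bases of exon, which exceeded 5 of the 8 members of at least 8 kb. All 8 tested members with at least 8 kb of exon had values of 0 or more, with a median of 0.18, while the 27 shorter ones had 14 positive and 13 negative values and a median of 0.00. KO 3 was the highest of the 6 libraries for 7 of the 8 long members and for 4 of the 27 shorter ones. The same gradient ran through the whole table. The median log2 fold change of all genes tested was -0.10 below 2 kb of exon, -0.06 from 2 to 4 kb, 0.01 from 4 to 8 kb, 0.09 from 8 to 16 kb and 0.22 above 16 kb, the last over 304 genes of which 86.5% were positive. Spearman's rho between exonic length and log2 fold change was 0.54 over the 35 members and 0.31 over all 14212 genes, as a description, since genes of 1 library share its preparation and depth.

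The libraries differed in this gradient. Over all genes tested, rho between exonic length and the deviation from the control mean was 0.13 in KO 1, -0.0083 in KO 2 and 0.44 in KO 3, so KO 2 showed no such gradient over all genes, while over the 35 members it was 0.29, 0.32 and 0.59. Genes above 16 kb had a median deviation from the control mean of 0.08 in KO 1, 0.09 in KO 2 and 0.49 in KO 3, on the scale of log2(CPM + 0.1). Pclo deviated by 0.21, 0.63 and 1.12 in the same libraries, which is 0.13, 0.54 and 0.63 above its length class. Its log2 fold change was larger than that of 95.4% of genes in the class. Rims2 was 0.13, 0.24 and 0.23 above the median of genes from 8 to 16 kb, and Cadps 0.07, 0.09 and 0.03. The shorter Sytl4 and Snap25 also lay above the median of their class, from 4 to 8 kb, in every KO library. The margins were 0.15, 0.32 and 0.22 for Sytl4 and 0.27, 0.13 and 0.27 for Snap25. Both are shown because they had the largest values of the members under 8 kb, so such margins largely follow from that choice. Ptprn2 and Nsf, in the class from 8 to 16 kb, were within 0.19 of the median of that class in every KO library. The part of exonic length in the member values was not tested further.

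**Figure D4:**
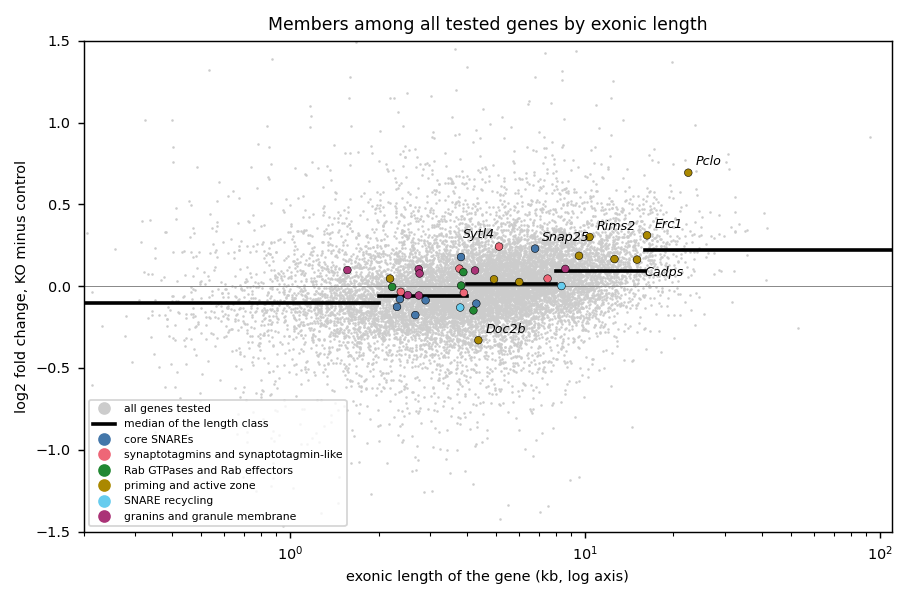
Log2 fold change (KO minus control, vertical axis) against exonic length in kb (log axis) for all genes tested in grey, with black bars at the median of each length class and the members coloured by role. The medians climb from -0.10 to 0.22, and Pclo, with 22457 bases of exon and a value of 0.69, lies above its class, while 27 genes outside -1.5 to 1.5 are not drawn.

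**Figure D5:**
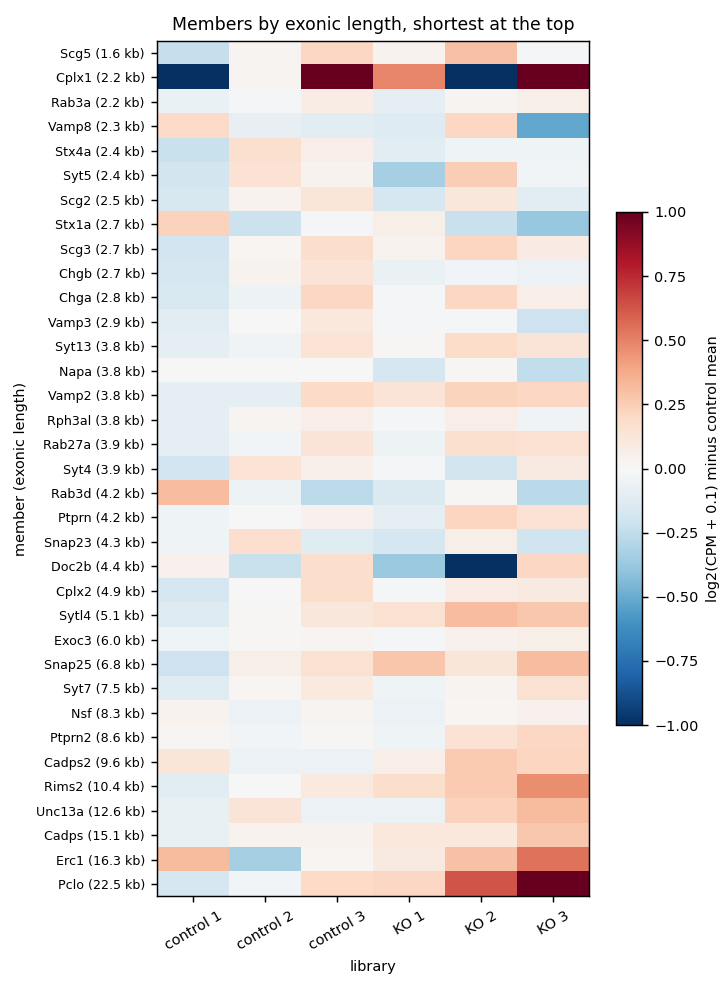
Deviation of each tested member in each library from the control mean, as log2(CPM + 0.1) on a colour scale limited at -1 and 1, with members ordered by exonic length. The longest members, from Rims2 (10389 bases) to Pclo (22457 bases), are red in KO 3, and the scale limit is reached by Pclo in KO 3 (1.12) and by Cplx1 and Doc2b, which have few counts.

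Beyond the members, 112 other genes of granule transport, docking, fusion and vesicle retrieval were looked up, of which 100 were tested. By the edgeR test 0 passed the threshold, and 0 did with DESeq2 or limma-voom. At an unadjusted p under 0.05 there were 12 higher and 3 lower, that is 15 of 100 beside 7.37% of all genes. Positive values were found in 65 and negative in 35, with a median of 0.06, beside 47.8% positive over all genes tested. The groups did not overlap in 16 higher and 6 lower genes, or 22.0% beside 13.9%. Over all genes tested, 7.94% lay apart and higher and 5.94% apart and lower. From 4 to 8 kb of exon, 7 of 44 were apart and higher, beside 8.17% of all genes of that length. From 8 to 16 kb it was 8 of 32 beside 17.2%, and above 16 kb 1 of 4 beside 29.6%. How far exonic length enters these counts was not tested. The 6 with the smallest p were all higher in KO, and 5 of them have more than 8 kb of exon. They were Dnm3, a dynamin of membrane fission (0.46, SE 0.12), Sv2b, a synaptic vesicle glycoprotein (0.64, SE 0.17), Exph5, a Rab27 effector (0.52, SE 0.14), Mlph, which encodes the Rab27 effector melanophilin (0.49, SE 0.14), Rimbp2, a RIM-binding protein (0.38, SE 0.11), and Bsn, which encodes bassoon (0.68, SE 0.21), with edgeR adjusted p from 0.460 to 0.548.

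Bsn is the closest relative of Pclo in function, and its values ran alike, at 20.0, 22.6 and 20.1 CPM in controls and 22.3, 32.9 and 45.1 in KO. KO 1 lay within the controls, and KO 2 and KO 3 above them. Its log2 fold change was 0.39 without KO 3 and -0.02 with the ribosomal RNA covariate. Mlph, with 5357 bases of exon the shortest of these 6, had 11.9, 9.03 and 12.7 CPM in controls and 15.5, 17.1 and 14.7 in KO. Here KO 3 was the lowest of the KO libraries, and the values with the ribosomal RNA covariate (0.42, SE 0.23) and without KO 3 (0.53) stayed near the main one.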

How the data were processed

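Raw counts per gene for 6 islet libraries, 3 per genotype, were deposited by the authors. The tools named per the submitters' processing notes are featureCounts 2.0.0 and STAR 2.7.9, with the builds mm10 and GRCm38.p6. Annotation release, strand setting and handling of multi-mapped reads were not given in the sources used here. Exons of 9 members overlap those of other genes, by at most 14.5% of member exon (Syt4), so their counts are less certain. The exonic length of each gene, deposited by the authors, served for levels per kilobase. For the members it equals all annotated exons of the gene merged, so it can exceed the length of the transcripts present. Symbols were given to 55141 of 55401 identifiers, and 1 of 259 listed genes was not found.

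Members and lists were chosen with earlier results of these data known. The test was edgeR 4.0.16 (glmQLFit, R 4.3.3) with TMM, genotype as the only term, filterByExpr (minimum count 10, minimum total 15) and Benjamini-Hochberg adjustment over 14212 genes, two-sided at 0.05. Alternatives were RLE, no filter, a replicate block, each library left out, DESeq2 1.42.0, limma 3.58.1 voom with and without sample quality weights, acinar and ribosomal RNA covariates, and removal of those genes. Values in every library are given for members with an unadjusted p under 0.05 or no overlap of groups, for the most abundant per kilobase of each role, and for Snap25, Rab27a and others chosen after their values were seen. Of the other exocytosis genes, the 6 with the smallest p are named. Ratios and shares were compared by exact permutation tests, and 95% Wilson intervals of shares reached at most 0.0252 percentage points to either side, for counting error only. No 2 libraries agreed within sampling noise (chi-square per degree of freedom at least 13.3). The test script was checked on simulated data.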

Additional observations from a re-analysis of the deposited data

How the results depend on the processing

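No member and none of the other exocytosis genes passed the threshold in any of the 15 alternatives, except without the filter on low counts, where 1 member (Pclo) and 6 others (Bsn, Exph5, Sv2b, Sytl5, Dnm3 and Mlph) passed. Over all genes the 10 calls became 300 without the filter, 36 with the replicate block, 49 with DESeq2, 6 with limma-voom, 31 with sample quality weights, 44 with the acinar covariate and 0 with the ribosomal RNA covariate (214 at an unadjusted p under 0.05), and 2 to 6 with a library left out. Libraries with the same number had deviations correlated at 0.16, -0.16 and 0.14, so the numbers are not taken to pair them. With the block the members' count stayed at 0 and Pclo stood at 0.66 (edgeR adjusted p = 0.0890).

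For some genes the sign depended on the setting, and the cause was not tested. With a library left out, log2 fold changes ran from -0.17 to 0.00056 for Stx4a, -0.31 to 0.044 for Vamp8, -0.13 to 0.030 for Syt4, -0.18 to 0.10 for Syt5, -0.011 to 0.10 for Syt7, -0.037 to 0.039 for Rab3a, -0.27 to 0.021 for Rab3d, -0.041 to 0.037 for Rph3al, -0.54 to 1.02 for Cplx1, -0.040 to 0.14 for Cplx2, -0.028 to 0.028 for Nsf, -0.14 to 0.0093 for Scg2, -0.010 to 0.21 for Scg5 and -0.14 to 0.013 for Chgb. With the ribosomal RNA covariate the sign changed for Vamp3 (0.051), Syt4 (0.039), Syt7 (-0.027), Rab27a (-0.052), Unc13a (-0.061), Erc1 (-0.13), Exoc3 (-0.017), Nsf (-0.094), Ptprn (-0.098), Ptprn2 (-0.083) and Bsn (-0.016). With the acinar covariate it changed for Syt7 (-0.0014), Rph3al (-0.010), Cplx1 (-0.17), Cplx2 (-0.0067) and Nsf (-0.0053). With sample quality weights it changed for Stx1a (0.031), Syt7 (-0.0058), Rph3al (-0.013), Exoc3 (-0.0039) and Nsf (-0.0016). Nsf also changed with RLE (-0.0015), no filter (-0.0026), DESeq2 (-0.0015) and without acinar genes and the ribosomal RNA locus (-0.00091), and Rph3al without the filter (-4.9e-07). Counts were lowest for Rims1 (1 to 4 per library, not tested), Cplx1 (3 to 51) and Doc2b (23 to 115), and the last 2 had the widest intervals among the members; how far depth sets these intervals was not tested.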
